A study of Mus musculus with 18 samples.

Results

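Podosomes are small adhesions of macrophages and osteoclasts, each with a core of branched actin and a surrounding ring of integrin-linked plaque proteins. In an osteoclast on bone they gather into a belt, the actin ring or sealing zone, which closes off the space in which bone is resorbed. The genes described here are 10 members of that structure, taken by symbol from a table of 34745 mouse genes. They are the tyrosine kinases Src and Ptk2b (Pyk2), the core actin regulators Cttn (cortactin) and Gsn (gelsolin), the plaque adaptors Pxn (paxillin) and Vcl (vinculin), the integrin activators Tln1 (talin) and Fermt3 (kindlin 3), the filopodial motor Myo10 and the invadopodial scaffold Sh3pxd2a (Tks5). All 10 passed the filter on low counts, with 105 to 18879 counts in a library.

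RNA was sequenced from bone marrow-derived macrophages (BMDMs) of mice labelled Zmat1 knockout (KO) and of wild-type (WT) littermates. According to the methods of the study, cells came from mice of 4 to 8 weeks, and the knockout was global. All cultures received the growth factor M-CSF, for 3 days by the series description and 4 by the methods, and RANKL, the cytokine that drives osteoclast formation, followed for 0, 1 or 3 days. There were 18 libraries, 3 for each of 6 groups of label and day, and nothing tells whether the 3 came from separate mice, so p-values measure only the spread between these libraries. The study observed smaller actin rings in its knockout cells. The question here is how the genes of that structure changed over the days of RANKL and whether they differed between the labels. No group was kept as long in culture without RANKL, so changes with RANKL cannot be told apart from changes with time in culture.

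Total counts ran from 13789775 to 17559958 per library. Zmat1 was counted in every library, at 3.49 to 7.61 CPM (counts per library total after TMM scaling, a trimmed mean across genes that sets library sizes on one footing) in the 9 libraries labelled KO and 2.19 to 7.50 CPM in the 9 labelled WT, so groups are named by label only. Which part of Zmat1 was deleted is not given in the sources used here. Macrophage markers (8 genes) summed to 30150 to 60450 CPM on day 0 and to 6320 to 17400 CPM on day 3, and 9 osteoclast markers rose from 215 to 915 CPM to 8145 to 23180 CPM. Markers of stromal cells or osteoblasts (14 genes, led by collagens) were also present, at 124 to 5407 CPM on day 0 and 12330 to 32420 CPM on day 3. Of the 14, Bglap of mature osteoblasts alone was at 0 in every library labelled WT, and it reached at most 0.119 CPM in a KO library. In such bulk samples fewer cells of a type and less RNA per cell cannot be told apart. The titles of 5 libraries, all of days 0 and 1, were written with a double hyphen, and 1 of them is a second WT day 1 library numbered 1.

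By day 3 of RANKL 6 of the 10 genes rose under both labels, namely Src, Myo10, Cttn, Vcl, Sh3pxd2a and Gsn, and Fermt3 fell under both. Pxn rose by the test under the WT label and was not called under the KO label, and Ptk2b and Tln1 were not called. In the libraries labelled WT 7 members were higher and 1 was lower by edgeR's quasi-likelihood test (Benjamini-Hochberg adjustment over 14241 genes, called at an adjusted p below 0.05), where 23.7% and 26.5% of all genes tested were called in these directions. In those labelled KO 6 were higher and 1 lower, against 20.2% and 22.3% of all genes. The median log2 fold change of the 10 members was 1.26 under each label, beside -0.03 (WT) and -0.0052 (KO) over all genes tested. The libraries of day 3 did not overlap those of day 0 in 8 members under the WT label and in 7 under the KO label, while 62.5% and 58.8% of all genes were free of overlap.

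**Figure D1:**
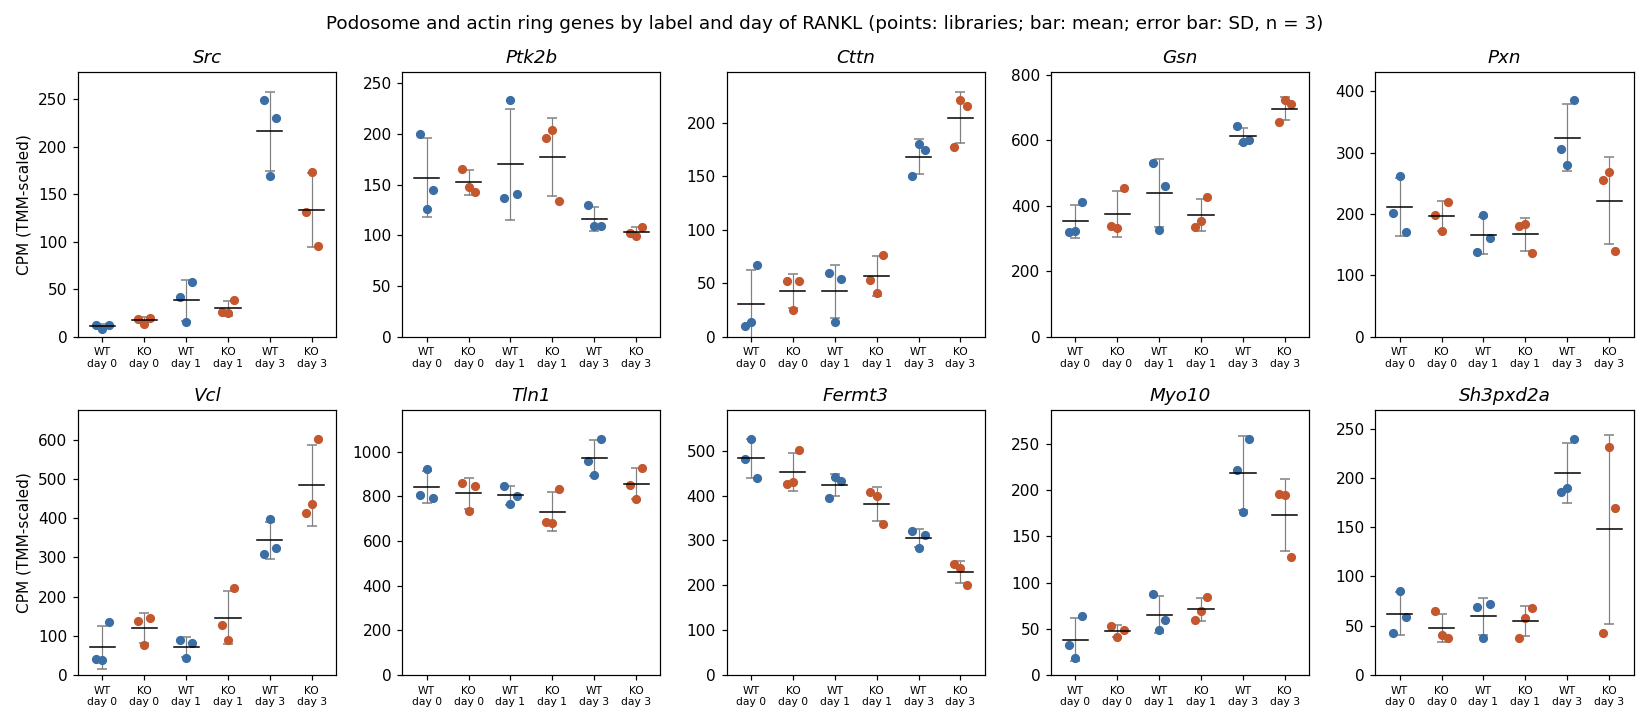
TMM-scaled CPM of the 10 genes in each of the 18 libraries, by label and day of RANKL, with the mean (bar) and SD (error bar) of the 3 libraries of a group. Src, Cttn, Vcl and Myo10 lie far higher on day 3 than before under both labels, Fermt3 steps down, and the 3 day 3 libraries labelled KO are spread from 43.0 to 231 CPM for Sh3pxd2a.

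Src (ENSMUSG00000027646, GRCm38 chromosome 2, 157418444 to 157471862, plus strand) is the tyrosine kinase without which osteoclasts form no ruffled border. It measured 12.6, 8.13 and 12.2 CPM in the 3 WT day 0 libraries and 249, 169 and 230.4 CPM in the 3 of day 3. In the libraries labelled KO it went from 19.2, 13.6 and 20.1 CPM to 131, 173 and 96.0 CPM. Every day 3 library thus lay above every earlier one. It rose 19.7-fold under the WT label, by 4.30 in log2 (SE 0.423, adjusted p = 7.55e-06, edgeR), and by 2.92 (SE 0.396, adjusted p = 0.00011), which is 7.56-fold, under the KO label. It had the largest fold change of the 10 members under both labels.

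Ptk2b (ENSMUSG00000059456, chromosome 14, 66153257 to 66281052, minus strand) encodes Pyk2, the focal adhesion kinase relative that works with Src at podosomes. It measured 200.4, 126 and 145 CPM in WT day 0 and 129.9, 109.7 and 109.5 CPM in WT day 3, with overlap. The KO libraries went from 166, 148 and 143 CPM to 103, 99.6 and 108 CPM, without overlap. Neither change was called, with a log2 fold change of -0.43 (SE 0.216, adjusted p = 0.108, edgeR) under the WT label and -0.56 (SE 0.217, adjusted p = 0.0508) under the KO label. With the replicate number as a block the KO value was -0.55 and was called (adjusted p = 0.0425), though what a shared number stands for is not stated. Without the 5 double-hyphen libraries it was also called (-0.52, adjusted p = 0.00613). The KO change was called in 4 of 16 alternatives and the WT change in 0 of 16. With limma on FPKM the KO value shrank to -0.26, not called, and the WT value to -0.04.

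Cttn (ENSMUSG00000031078, chromosome 7, 144435733 to 144471009, minus strand) encodes cortactin, a substrate of Src that binds branched actin in the core. It was at 9.81, 13.9 and 67.1 CPM in WT day 0 and at 149.9, 180.5 and 175 CPM in WT day 3. The KO libraries held 52.6, 24.8 and 52.2 CPM on day 0 and 178, 221 and 216 CPM on day 3. WT day 0 library 3 was several times higher than the other two of its group, yet no day 0 library reached a day 3 library. The log2 fold changes were 2.47 (SE 0.632, adjusted p = 0.00517, edgeR) and 2.25 (SE 0.625, adjusted p = 0.0106). Without WT day 0 library 3 the WT value was 3.85.

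Gsn (ENSMUSG00000026879, chromosome 2, 35256380 to 35307892, plus strand) encodes gelsolin, which severs and caps actin filaments. It was already abundant before RANKL, at 321, 324 and 411 CPM (WT) and 338, 332 and 455 CPM (KO). On day 3 it measured 642, 596 and 601 CPM in the libraries labelled WT and 657, 722 and 709.5 CPM in those labelled KO, with all 6 above the 6 of day 0. The rise was smaller than for the genes above but had a small error, with log2 fold changes of 0.80 (SE 0.179, adjusted p = 0.00223, edgeR) and 0.89 (SE 0.18, adjusted p = 0.00156).

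The plaque adaptors Vcl and Pxn differed. Vcl (ENSMUSG00000021823, chromosome 14, 20929433 to 21033673, plus strand) encodes vinculin, which links talin to actin. It measured 40.2, 37.7 and 134 CPM in WT day 0 and 309.8, 398 and 324 CPM in WT day 3. The KO values were 139, 75.5 and 145 CPM and then 414, 435 and 603 CPM, so that all day 3 libraries lay above all those of day 0. The log2 fold changes were 2.28 (SE 0.481, adjusted p = 0.00146, edgeR) and 2.02 (SE 0.476, adjusted p = 0.00416), and the WT value was 3.17 without WT day 0 library 3. The locus of Vcl overlaps by 2232 bases that of Ap3m1 on the other strand, which had 522 to 1206 counts in a library, and the sources used here do not say whether counting used strand.

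Pxn (ENSMUSG00000029528, chromosome 5, 115506676 to 115555987, plus strand) encodes paxillin, a scaffold phosphorylated by Src and focal adhesion kinases. It went from 202, 263 and 170.1 CPM to 307, 280.5 and 386 CPM under the WT label. Under the KO label it went from 198, 172 and 220.3 CPM to 255, 269 and 140 CPM, where the third day 3 library lay below all 3 of day 0. The WT change had a log2 fold change of 0.62 (SE 0.239, adjusted p = 0.0437, edgeR), and the call was lost without WT day 0 library 1 or 3, without WT day 3 library 1 or 3 and without the 5 double-hyphen libraries (adjusted p of 0.0666 to 0.159). The KO change was 0.17 (SE 0.238, adjusted p = 0.588), and 0.41 without KO day 3 library 3 (adjusted p = 0.139).

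Tln1 and Fermt3, whose proteins bind the tails of integrin beta chains and switch integrins on, were among the 3 most abundant members per length before RANKL, and neither rose by the test. Tln1 (ENSMUSG00000028465, chromosome 4, 43531519 to 43562691, minus strand) measured 804, 922 and 793 CPM in WT day 0 and 960, 898 and 1059 CPM in WT day 3. It measured 859, 733 and 847 CPM and then 850.5, 789.9 and 928 CPM in the KO libraries. Day 0 and day 3 overlapped under both labels, and the log2 fold changes were 0.21 (SE 0.129, adjusted p = 0.181, edgeR) and 0.07 (SE 0.129, adjusted p = 0.664). The WT change was called in 3 of 16 alternatives, by DESeq2 at 0.26 (adjusted p = 0.0466), scaled by total counts at 0.58 (adjusted p = 0.0153) and by limma on FPKM at 0.58 (adjusted p = 0.00984). Tln1 overlaps Creb3 on the other strand by 360 bases.

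Fermt3 (ENSMUSG00000024965, chromosome 19, 6998958 to 7019469, minus strand), the kindlin of blood cells, was the one member that fell. It went from 481, 527 and 440 CPM to 321, 283 and 313 CPM under the WT label. In the KO libraries it went from 426, 429.7 and 501 CPM to 247, 239 and 201 CPM. All 6 day 3 libraries lay below all 6 of day 0, to 0.633 (WT) and 0.506 (KO) of the day 0 level. The log2 fold changes were -0.66 (SE 0.123, adjusted p = 0.000614, edgeR) and -0.98 (SE 0.124, adjusted p = 6.84e-05). Scaling by total counts moves the log2 median of all genes up, by 0.36 under the WT label and 0.29 under the KO label, and the change of Fermt3 was then -0.29 and not called (adjusted p = 0.0848) under the WT label and -0.69 and called under the KO label. Fermt3 therefore fell relative to the median gene.

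Myo10 (ENSMUSG00000022272, chromosome 15, 25622525 to 25813673, plus strand) encodes a motor that carries integrins to the tips of filopodia. It measured 32.6, 18.6 and 63.7 CPM in WT day 0 and 222, 176 and 256 CPM in WT day 3. The KO values were 53.4, 41.0 and 48.6 CPM and then 196, 195 and 128 CPM. No day 3 library overlapped one of day 0, and the log2 fold changes were 2.51 (SE 0.36, adjusted p = 9.04e-05, edgeR) and 1.86 (SE 0.352, adjusted p = 0.00104). Without WT day 0 library 3 the WT value was 3.11.

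Sh3pxd2a (ENSMUSG00000053617, chromosome 19, 47260174 to 47464411, minus strand) encodes Tks5, a Src substrate that recruits the matrix proteases of invasive podosomes. It was at 42.9, 85.3 and 59.1 CPM in WT day 0 and at 186, 189 and 240.0 CPM in WT day 3. The KO libraries went from 64.5, 40.5 and 38.1 CPM to 43.0, 231 and 169 CPM, so that KO day 3 library 1 stayed within the range of day 0. The log2 fold changes were 1.72 (SE 0.469, adjusted p = 0.0077, edgeR) and 1.63 (SE 0.469, adjusted p = 0.0126). The KO value was 2.07 (adjusted p = 0.000941) without KO day 3 library 1 and 1.15 (adjusted p = 0.0743) without KO day 3 library 2.

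**Figure D2:**
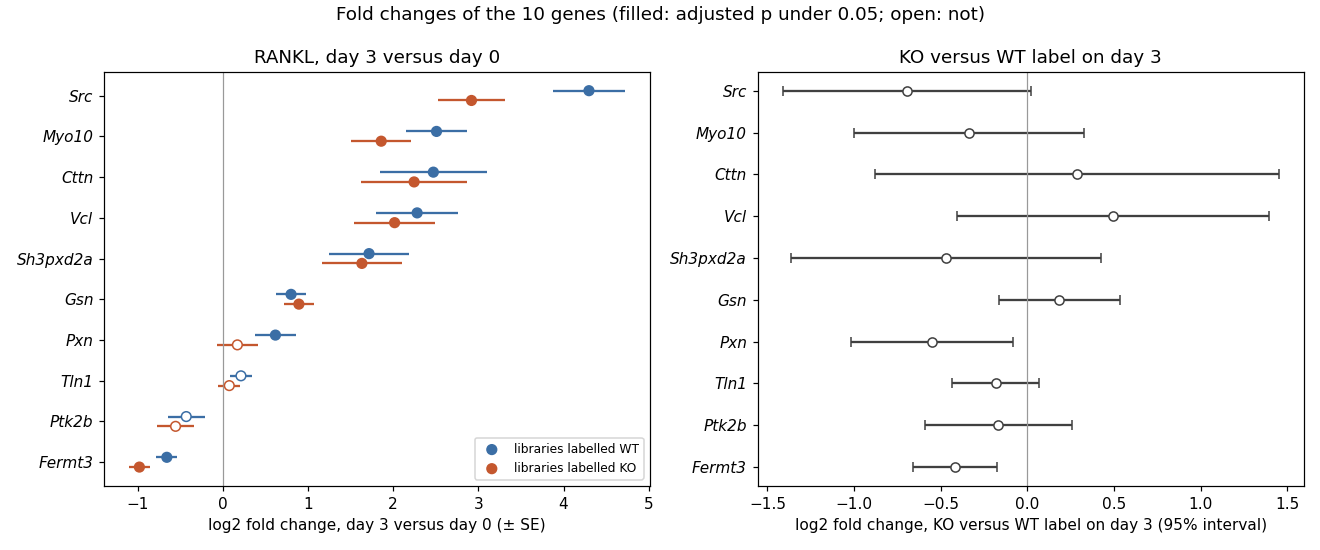
Log2 fold change of each gene from day 0 to day 3 of RANKL with its SE, by label (left), and of the KO against the WT label on day 3 with its 95% interval (right), with filled points for an adjusted p below 0.05. In the left plot Src stands highest at 4.30 and 2.92 and Fermt3 lowest at -0.66 and -0.98, and all 10 points of the right plot are open.

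RefSeq promoter windows (GRCm38.p6) were at hand for 6 of the members, namely Src, Gsn, Vcl, Tln1, Fermt3 and Myo10, with 9 windows in all, and for Ptk2b, Cttn, Pxn and Sh3pxd2a there was no entry. The 250 bases before each start were searched on both strands for TGGAAA (NFAT), TGANTCA (AP-1), CACGTG and CATGTG (E-boxes bound by MITF), GGAATG (TEAD) and the CArG box of SRF. Of 32851 mouse windows of that length, 18.6% held TGGAAA, 6.75% TGANTCA, 6.02% CACGTG, 12.3% CATGTG, 12.6% GGAATG and 1.47% a CArG box. The following 4 windows are shown for a gene with a CArG box and a strong rise, for 2 further risers and for the member that fell, with matches in capitals.
Vcl, chr14:20929148-20929397, plus strand: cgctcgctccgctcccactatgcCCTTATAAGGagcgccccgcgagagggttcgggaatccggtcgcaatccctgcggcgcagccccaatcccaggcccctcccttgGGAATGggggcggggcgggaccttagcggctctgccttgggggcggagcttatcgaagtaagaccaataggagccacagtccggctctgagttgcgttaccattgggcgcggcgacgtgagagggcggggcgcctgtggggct
Myo10, chr15:25752956-25753205, plus strand: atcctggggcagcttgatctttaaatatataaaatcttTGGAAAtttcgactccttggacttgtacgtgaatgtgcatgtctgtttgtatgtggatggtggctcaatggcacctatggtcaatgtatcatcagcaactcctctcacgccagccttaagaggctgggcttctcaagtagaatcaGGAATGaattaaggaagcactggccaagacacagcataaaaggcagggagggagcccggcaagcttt
Src, chr2:157424043-157424292, plus strand: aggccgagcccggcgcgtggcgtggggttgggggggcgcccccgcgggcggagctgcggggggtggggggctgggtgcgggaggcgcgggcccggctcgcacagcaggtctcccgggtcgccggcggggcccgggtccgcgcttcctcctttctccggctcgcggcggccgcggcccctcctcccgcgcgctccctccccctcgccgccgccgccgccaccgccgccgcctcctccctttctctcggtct
Fermt3, chr19:7019470-7019719, minus strand: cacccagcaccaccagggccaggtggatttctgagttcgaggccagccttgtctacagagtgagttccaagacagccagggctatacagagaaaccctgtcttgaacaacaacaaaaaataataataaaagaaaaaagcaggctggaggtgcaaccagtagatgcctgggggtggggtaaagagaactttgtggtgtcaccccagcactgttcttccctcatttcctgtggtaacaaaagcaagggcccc

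In the Vcl window the capitals are a CArG box at 227 to 218 bases before the start, which reads the same on both strands, and GGAATG at 143 to 138 bases before it. In the second of the 2 Myo10 windows, at an internal start, they are TGGAAA at 212 to 207 and GGAATG at 67 to 62 bases before the start. The first Myo10 window (chr15:25622300-25622549), which reaches the start of the span given above, held none of the 6 motifs. The Src and Fermt3 windows held none of the 6 motifs, nor did that of Tln1, and 1 of the 3 Gsn windows held TGGAAA. The RefSeq start of Src lies inside the span given above. A match describes letters in a window, and none of these data show a factor bound there.

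Day 1 was compared with days 0 and 3. From day 0 to day 1 under the WT label Src alone was higher (1 of 10 members, against 1.44% of all genes) and 0 were lower (0.913% of all genes). Src measured 41.6 and 57.9 CPM in WT day 1 libraries 1 and 2 but 15.2 CPM in the double-hyphen library numbered 1, close to the day 0 range. The log2 fold change of Src was 1.80, with an SE of 0.388 (adjusted p = 0.0383, edgeR), a call that was lost without any 1 of WT day 0 libraries 1 and 2 and WT day 1 libraries 1 and 2. Myo10 (log2 fold change 0.77, adjusted p = 0.224, and 1.35 with a call without WT day 0 library 3) and Gsn (0.32, adjusted p = 0.33) were not called. Under the KO label 0 members were higher and 0 lower (0.0211% and 0% of all genes, edgeR), and DESeq2 and limma called 0. There 0 members had an unadjusted p under 0.05, and the share of all genes at that threshold was not computed. There Src had 25.9, 24.9 and 39.2 CPM (log2 fold change 0.76, adjusted p = 0.509) and Myo10 60.1, 69.2 and 84.9 CPM (0.58, adjusted p = 0.599), and both lay above the 3 libraries of KO day 0. Fermt3, at 407, 399.9 and 338 CPM, lay below them, so that 3 of 10 members did not overlap, beside 19.1% of all genes.

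From day 1 to day 3 the libraries labelled WT had 6 members higher and 1 lower (12.7% and 19.3% of all genes) and those labelled KO had 6 higher and 2 lower (12.5% and 15.5% of all genes). Src, Cttn, Vcl, Myo10 and Sh3pxd2a rose under both labels. The WT call of Cttn (1.98, adjusted p = 0.025) was lost with the replicate block (1.57, adjusted p = 0.0636) and without the WT day 1 double-hyphen library, WT day 3 library 2 or WT day 3 library 3 (adjusted p of 0.0549 to 0.0838). The rise of Src had a log2 fold change of 2.50 (SE 0.387, adjusted p = 0.000437, edgeR) under the WT label and 2.15 (SE 0.383, adjusted p = 0.00125) under the KO label. Pxn rose under the WT label (0.97, SE 0.24, adjusted p = 0.00755) from 139, 160.4 and 198 CPM on day 1, while its KO change was 0.41 (adjusted p = 0.209). Gsn rose under the KO label (0.91, SE 0.18, adjusted p = 0.00247) from 336, 352 and 427 CPM, and its WT change of 0.48 (adjusted p = 0.0518) was called in 7 of 17 alternatives. Whether these changes differ between the labels was not tested. Fermt3 fell under both (-0.47, adjusted p = 0.0102, and -0.74, adjusted p = 0.000869), and Ptk2b fell under the KO label from 196, 204 and 134 CPM (-0.78, SE 0.217, adjusted p = 0.0166), with -0.55 under the WT label (adjusted p = 0.0659). The KO call of Ptk2b was lost when the first or the second KO library of day 1, or the second of day 3, was left out, and with title style as a covariate (adjusted p of 0.0606 to 0.0805). The KO calls of Cttn and Sh3pxd2a were lost without any 1 of several libraries of days 1 and 3, and without KO day 1 library 1 only 2 members were higher. That of Vcl was lost without KO day 1 library 1 or 2 (adjusted p of 0.0581 and 0.0676, edgeR). That of Myo10 was lost without KO day 1 library 1 or KO day 3 library 2, and with title style (adjusted p of 0.0524 to 0.0629). With title style the KO value of Cttn was 0.91 and not called (adjusted p = 0.203). With the replicate number as a block the KO rise of Sh3pxd2a was 1.34 and not called (adjusted p = 0.0603). Without the 5 double-hyphen libraries, which leave 1 KO day 1 library, the KO counts were 1 higher and 0 lower, and the WT counts were 5 and 0.

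The members were also set beside the marker sums library by library. Within a day, with both labels together, 45 pairs of libraries can be ordered (15 a day). Vcl lay in the same order as the summed stromal or osteoblast markers in 41 of the 45 pairs, Cttn in 40 and Gsn in 35, where the median of all genes tested was 22 pairs with quartiles of 17 and 28. On day 1 all 15 pairs agreed for Vcl, whose 6 values from 43.4 to 221 CPM followed marker sums from 357 to 9451 CPM. WT day 0 library 3, in which Cttn and Vcl stood apart, also had the highest stromal sum of its group, at 5407 CPM against 124 and 626 CPM. Its sum was the highest of the group as well for markers of megakaryocytes or platelets (378 against 76.7 and 104 CPM). The same held for endothelial cells (42.9 against 22.3 and 13.8 CPM) and neutrophils (3002 against 2586 and 659.9 CPM). Its macrophage sum was the lowest, at 30150 CPM. Orders along the megakaryocyte, endothelial and B cell sums were not counted. Src followed the stromal sum in 22 pairs and Myo10 in 29, and on day 3 in 3 and 4 of 15 pairs. Fermt3 (9 pairs), Ptk2b (11) and Pxn (11) ran mostly in the opposite order to it. On day 3 the stromal sums of the labels did not overlap (12330 to 15960 CPM for WT, 22260 to 32420 CPM for KO). The order of day 3 pairs across labels therefore restates the difference between the labels. The neutrophil sum was followed by Vcl in 33 pairs (14 of 15 on day 0), by Gsn in 29 (13 of 15 on day 3) and by Src in 22 (14 of 15 on day 0), and the macrophage sum by Ptk2b in 28 and Myo10 in 10, where all genes had a median of 22 pairs and quartiles of 18 and 27 for both.

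The summed osteoclast markers gave another order. Pxn agreed in 31 pairs, Src in 30 and Fermt3 in 29, Vcl in 17 and Cttn in 18, beside a median of 22 over all genes (quartiles of 19 and 26). On day 3 Pxn and Sh3pxd2a followed the osteoclast sum in 13 of 15 pairs and Src and Fermt3 in 11. Sh3pxd2a followed it in 1 of 15 pairs on day 0 and in 21 of the 45 in all. The counts of all genes for a single day were not computed. KO day 3 library 3, with the lowest osteoclast sum of its day (8145 CPM), also had the lowest day 3 values of Src, Pxn, Fermt3 and Myo10, and the highest of Vcl. These counts describe pairs that share libraries, carry no test, and the part of stromal, neutrophil, macrophage or osteoclast RNA in the changes of the members was not tested. The stromal sum was also higher on day 3, at 12330 to 15960 CPM (WT) and 22260 to 32420 CPM (KO). Of the 13 stromal genes tested 10 (WT) and 12 (KO) were called higher. From day 0 to day 3 some members rose, while Fermt3 fell and Ptk2b and Tln1 were not called.

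**Figure D3:**
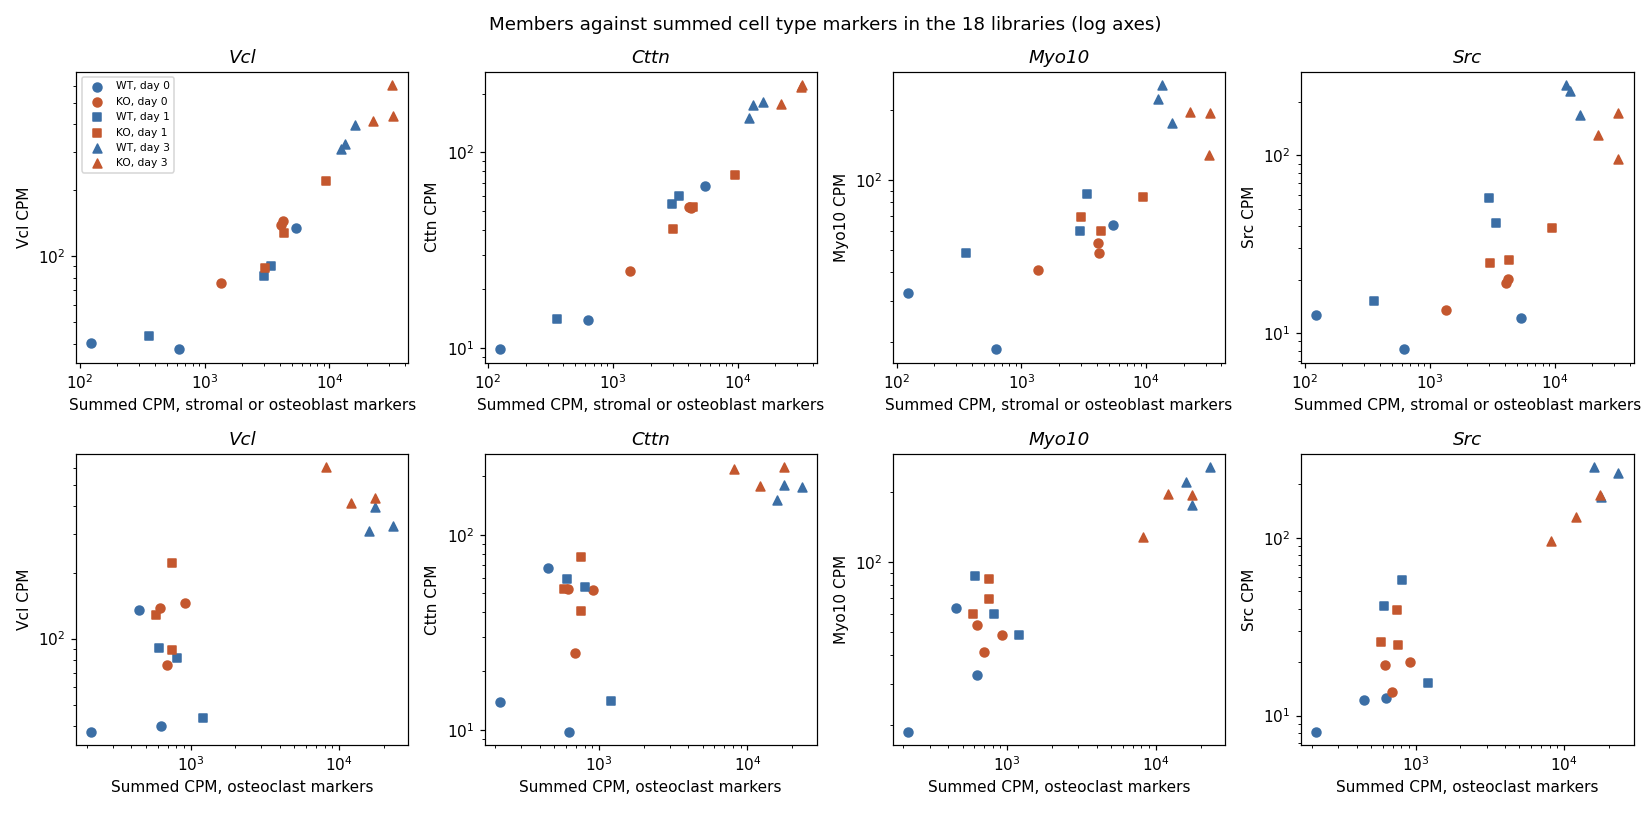
CPM of Vcl, Cttn, Myo10 and Src (log axes) against the summed CPM of stromal or osteoblast markers (top) and osteoclast markers (bottom) in the 18 libraries, coloured by label with a symbol for each day. Vcl and Cttn climb along the stromal sum within and across days, while the day 3 values of Src lie lower where the stromal sum is higher. On day 3 every library labelled KO has a higher stromal sum than every library labelled WT.

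Between the labels 0 of the 10 members were called on any day (edgeR), where the share of all genes called was 0.119% on day 0, 0.112% on day 1 and 0.14% on day 3. On day 3, 2 members had an unadjusted p under 0.05 (10.7% of all genes), DESeq2 called 1 (1.65% of all genes) and limma 0 (0.26%). The largest of these by its test was Fermt3, at 247, 239 and 201 CPM under the KO label and 321, 283 and 313 CPM under the WT label. The 2 groups did not overlap, the log2 fold change was -0.42 (SE 0.123, adjusted p = 0.26), and DESeq2 gave -0.42 and an adjusted p of 0.0342. Pxn also lay lower without overlap, with a log2 fold change of -0.55 (SE 0.238, adjusted p = 0.431) that was -0.31 without KO day 3 library 3.

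Src measured 131, 173 and 96.0 CPM against 249, 169 and 230.4 CPM on day 3, overlapping in 1 library. The difference of Src in log2 was -0.69 (adjusted p = 0.524, edgeR), with a 95% interval of -1.41 to 0.02. Vcl lay on the other side, with all 3 libraries labelled KO above those labelled WT and a log2 fold change of 0.49 (interval -0.41 to 1.39, adjusted p = 0.731). The stromal sum averaged 28870 CPM in these KO libraries and 13880 CPM in the WT ones, and its part in the difference was not tested. For Cttn the difference was 0.28 (interval -0.88 to 1.45), for Myo10 -0.34 (-1.002 to 0.33), for Gsn 0.18 (-0.17 to 0.53), for Tln1 -0.18 (-0.44 to 0.07) and for Ptk2b -0.17 (-0.59 to 0.25). Sh3pxd2a differed by -0.47 (-1.36 to 0.42), and by -0.03 without KO day 3 library 1. The median difference of the 10 members was -0.26. A p above the threshold does not show equal levels, and the interval of Cttn in particular is wide on both sides of 0.

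In 5 members (Ptk2b, Gsn, Pxn, Vcl and Fermt3) the day 3 libraries of the labels did not overlap, as in 29.2% of all genes. The study's own criterion was an unadjusted p below 0.05 together with a fold change over 1.5 or less than 0.66, and by it 0 of 10 members passed on day 3 (5.69% of all genes), 1 on day 1 (4.7%) and 0 on day 0 (3.95%). The 1 on day 1 was Vcl, at 128, 88.9 and 221 CPM under the KO label and 90.4, 43.4 and 81.4 CPM under the WT label, with a log2 fold change of 1.02 (SE 0.465, adjusted p = 0.625) that was 0.60 without KO day 1 library 3. On day 0 only Src had groups without overlap (1 of 10, 10.1% of all genes), with a log2 fold change of 0.69 (SE 0.384, adjusted p = 0.732). Vcl (0.76, adjusted p = 0.765) and Cttn (0.51, adjusted p = 0.893) leaned the same way on day 0, with values of 1.62 and 1.86 without WT day 0 library 3. Neutrophil markers (7 genes) summed to different ranges by label, at 3642 to 11680 CPM (KO) against 659.9 to 3002 CPM (WT) on day 0 and at 97.3 to 1142 CPM against 35.6 to 66.6 CPM on day 3, and their part in the members' levels was not tested.

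The change from day 0 to day 3 was compared between the labels with an interaction term, and 0 of 10 members were called (0% of all genes, edgeR), as with DESeq2 and limma. Src was the 1 member of the 10 with an unadjusted p under 0.05, and the share of all genes at that threshold was not computed. The interaction of Src was -1.38 on the log2 scale (SE 0.531, adjusted p = 0.91), which is not a call. In these libraries the mean of Src rose less under the KO label, from a higher day 0 mean to a lower day 3 mean. The interaction was -0.65 for Myo10 (SE 0.484, adjusted p = 0.926), -0.45 for Pxn (SE 0.337, adjusted p = 0.927) and -0.32 for Fermt3 (SE 0.173, adjusted p = 0.921).

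Levels per length were read from the deposited FPKM values, which divide counts by library total and exon length. Before RANKL the members spanned a wide range in the libraries labelled WT. Fermt3 was highest at 170.1 ± 17.3 FPKM (SD, n = 3), ahead of Gsn at 73.2 ± 13.7 and Tln1 at 67.2 ± 7.64. Pxn (13.7 ± 3.23), Vcl (12.6 ± 10.2) and Ptk2b (12.2 ± 2.35) formed a middle group whose ranges overlapped, and Sh3pxd2a (5.48 ± 2.05), Cttn (4.47 ± 4.84), Myo10 (2.32 ± 1.47) and Src (0.975 ± 0.205) were lowest. On day 3 Gsn led at 163 ± 7.81 FPKM, with Fermt3 at 139 ± 11.4, Tln1 at 100.3 ± 10.9 and Vcl at 77.1 ± 9.22. Cttn (31.2 ± 3.02), Pxn (27.1 ± 5.25), Src (24.9 ± 5.18) and Sh3pxd2a (23.0 ± 3.94) then lay together, and Ptk2b, which had been above them all but Pxn, was lowest at 11.7 ± 1.18 FPKM. Under the KO label Vcl reached 105 ± 17.8 FPKM on day 3, beside Fermt3 at 101 ± 14.5, and Src 14.9 ± 4.7.

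Over the 6 groups both day 3 means were the highest in CPM for 8 members, all but Ptk2b and Fermt3, for which they were the lowest. Of the 8, the KO mean lay above the WT mean on day 3 for Cttn, Vcl and Gsn and below it for Src, Myo10, Pxn, Tln1 and Sh3pxd2a. The day 3 groups overlapped for Src, Cttn, Myo10, Tln1 and Sh3pxd2a and did not for Vcl, Gsn and Pxn. For Src the groups ran from WT day 0 (11.0 ± 2.47 CPM) through KO day 0 (17.6 ± 3.51), KO day 1 (30.0 ± 7.98) and WT day 1 (38.2 ± 21.5) to KO day 3 (133 ± 38.7) and WT day 3 (216 ± 42.0). Its neighbours overlapped in 2 of 5 steps, between the day 1 groups and between the day 3 groups. For Tln1 and Sh3pxd2a all 5 neighbouring steps overlapped. The order of the groups was the same in FPKM as in CPM for Src, Ptk2b, Vcl and Myo10.

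A list of 23 genes related to the members by family was also examined, of which 20 passed the filter on low counts. Of these, 4 were higher and 6 lower on day 3 under each label (edgeR), beside 23.7% and 26.5% of all genes (WT) and 20.2% and 22.3% (KO). Lyn, a Src family kinase of myeloid cells, fell while Src rose. It went from 41.05 ± 4.29 to 22.7 ± 1.47 FPKM under the WT label (log2 fold change of the counts -1.22, SE 0.167, adjusted p = 6.38e-05) and fell by 1.30 in log2 under the KO label. Fgr fell under the KO label (-1.28, adjusted p = 0.0463, a call lost scaled by total counts) and had -0.64 under the WT label (adjusted p = 0.286). Fyn (-0.25 and -0.11, and 0.11 and 0.17 scaled by total counts) and Yes1 (1.44 and 1.74) were not called, nor was the lymphoid Lck at under 1 FPKM. On day 0 Src was thus the lowest of Src, Lyn, Fgr and Fyn per length in the libraries labelled WT, and on day 3 its mean was the highest of them there, with Lyn close to it at 22.7 ± 1.47 FPKM.

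**Figure D4:**
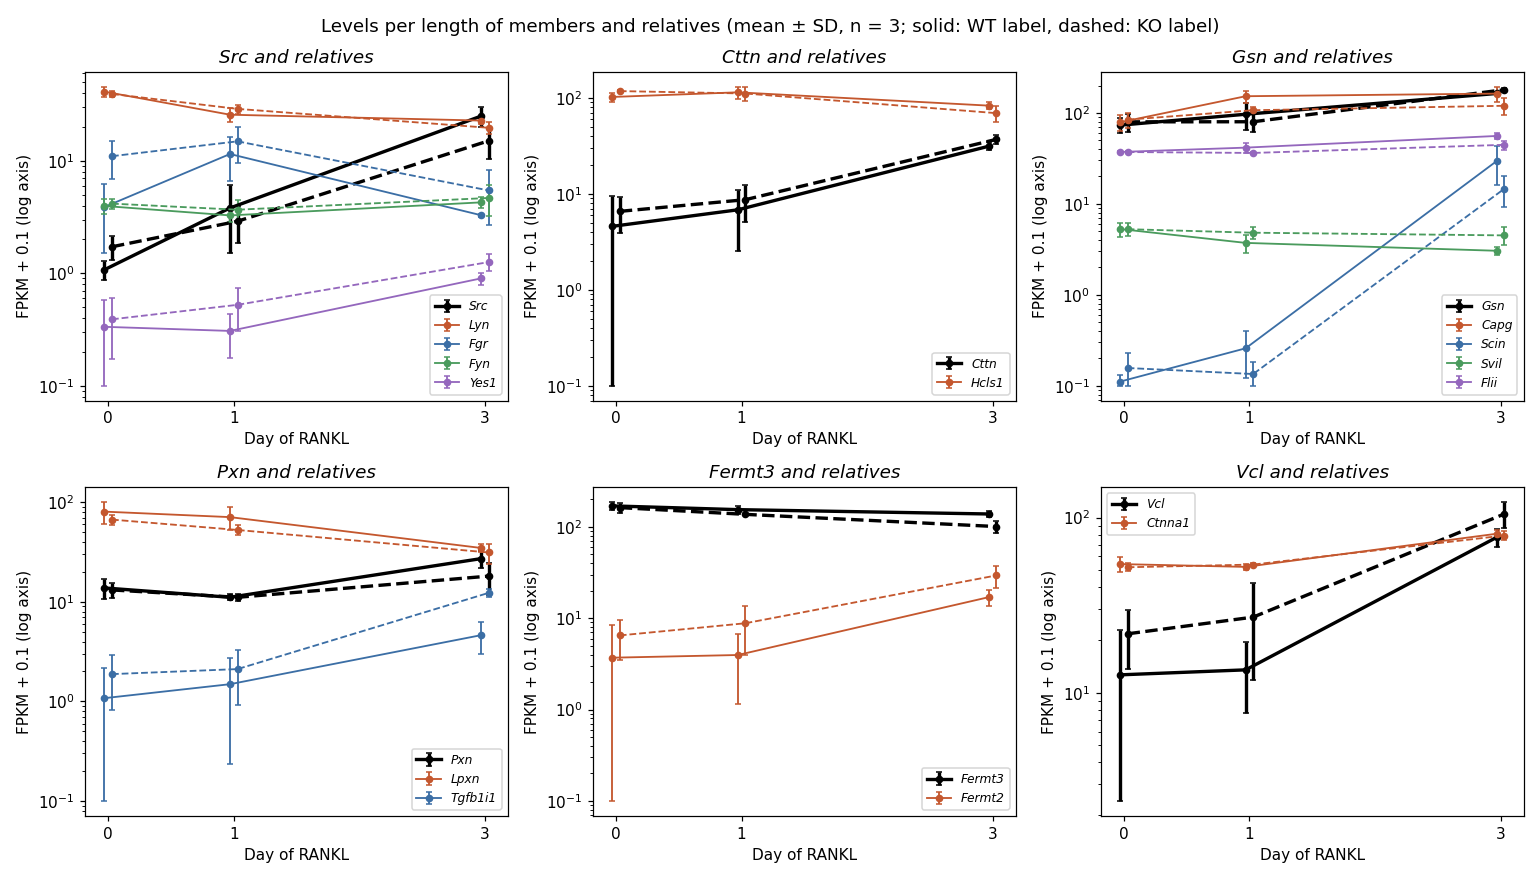
Mean FPKM plus 0.1 (log axis) on days 0, 1 and 3 of RANKL for 6 members (thick black) and their relatives, with SD over the 3 libraries of a group, solid for the WT label and dashed for the KO label, where lower error bars that would pass 0 end at the added 0.1. Src passes Lyn on day 3 under the WT label, Cttn approaches Hcls1, and Scin climbs from near 0. The means of Fermt2 also lie higher on day 3, a change that was not called under either label.

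Cttn rose towards Hcls1, its relative in blood cells, which fell from 102 ± 10.6 to 82.7 ± 6.85 FPKM under the WT label (log2 fold change of the counts -0.67, adjusted p = 0.00612) and by 1.06 on the log2 scale under the KO label (adjusted p = 0.000463). The call of Hcls1 under the WT label was lost with total counts (-0.30). Among relatives of paxillin, Lpxn (leupaxin) fell (-1.57, SE 0.165, adjusted p = 1.12e-05 under the WT label, and -1.39 under the KO label), and Tgfb1i1 (Hic-5) rose from 0.979 ± 1.06 to 4.53 ± 1.61 FPKM (1.89, adjusted p = 0.0491, and 2.52, adjusted p = 0.0162). Ptk2, the focal adhesion kinase next to Pyk2, rose (0.81, adjusted p = 0.0409, and 1.00, adjusted p = 0.0189), but stayed below Ptk2b per length, at 8.33 ± 1.19 against 11.7 ± 1.18 FPKM on WT day 3.

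Of the gelsolin family, Scin (scinderin) had the largest change of the relatives. It had 0 to 2 counts in the WT day 0 libraries and 1215 to 2737 on day 3, at least 445-fold higher against a floor of 3 counts in each day 0 library. Under the KO label it had 0 to 8 counts on day 0 and 570 to 1098 on day 3 (14.5 ± 5.39 FPKM, adjusted p = 2.98e-05, edgeR). On day 3 Scin was at 29.5 ± 13.4 FPKM under the WT label, well below Gsn at 163 ± 7.81. Capg rose under the WT label (0.67, adjusted p = 0.0161) and not by the test under the KO label (0.19, adjusted p = 0.471), Svil fell under the WT label (-1.18, adjusted p = 0.000948), and Flii was not called.

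Fermt2, the kindlin of adherent cells, was at 16.96 ± 3.56 FPKM on WT day 3 and 29.4 ± 7.92 on KO day 3, from 3.60 ± 4.82 and 6.39 ± 3.00 on day 0. Its log2 fold changes of 1.92 and 1.95 were not called (adjusted p = 0.0654 and 0.0675), and Fermt1 had 0 counts throughout. The stromal sum averaged 13880 CPM on WT day 3 and 28870 CPM on KO day 3, and its part in the level of Fermt2 was not tested. Tln2 rose under the KO label (2.34, adjusted p = 0.0355) and had 1.27 under the WT label (adjusted p = 0.201). Myo9b fell (-0.70 and -0.48, adjusted p = 0.00124 and 0.0158), a call lost under both labels with total counts. Myo7a, Ctnna1 and Sh3pxd2b were not called under TMM scaling.

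Genes of the wider podosome pathway changed in both directions. Over 8 lists with 86 genes, all tested, 22 were higher and 27 lower on day 3 under the WT label, and 22 and 31 under the KO label. Of all genes tested 23.7% were higher and 26.5% lower under the WT label, and 20.2% and 22.3% under the KO label. These shares also stand beside the counts of each list below. Scaled by total counts, the split was 39 and 16 (WT) and 30 and 16 (KO), so the balance of the directions depends on scaling. Over all genes tested that scaling called 36.2% higher and 15.6% lower (WT) and 30.0% and 13.8% (KO). Among adhesion receptors, Itgav had log2 fold changes of 2.93 (WT) and 2.08 (KO) and Itgb3 of 3.40 and 1.71, and both, the chains of the vitronectin receptor of osteoclasts, rose. Itgam of macrophages had -0.83 and -0.86, calls that were lost with total counts. In all 4 of the 7 receptors were higher and 2 lower under the WT label, and 3 and 2 under the KO label. Of 14 plaque adaptors 6 were higher and 4 lower (KO 7 and 2). Actn1, which crosslinks actin at adhesions, rose (1.46 and 1.13), while Zyx (-1.89 and -1.37) and Evl (-1.99 and -1.63), which act together in filament elongation, fell.

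Of 10 kinases, phosphatases and adaptors of podosome signalling 2 were higher and 5 lower under the WT label (KO 2 and 6). Ptpn12, a phosphatase of podosome proteins, rose (1.17 and 0.64), and Syk (-1.25 and -1.40) and its adaptor Tyrobp (-1.61 and -1.53) fell. Of 15 genes of actin nucleation 0 were higher and 7 lower (KO 0 and 10), among them Coro1a (-2.06 and -2.13), Arpc3 of the Arp2/3 complex (-0.84 and -0.93) and Was (-0.82 and -1.24). With total counts these became 2 higher and 4 lower (KO 1 and 3). The core regulator Cttn thus rose while no nucleation gene was called higher under TMM scaling.

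Of 12 crosslinking, capping and filament genes 4 were higher and 2 lower (KO 2 and 3), with Tpm4 at 1.38 and 1.37, Flna at 1.24 and 1.07 and Tmsb4x at -1.16 and -1.12. Of 8 myosins 2 were higher and 2 lower (KO 5 and 2). Myo1e rose (2.63 and 1.42) with Myo10, and Myo1f (-1.27 and -1.36) and Myo5a (-1.34 and -0.92) fell, the latter without a call under the KO label with total counts. Of 8 scaffolds and proteases 1 was higher and 1 lower (KO 1 and 3). Mmp14, the membrane protease delivered to Tks5-bearing podosomes, rose by 3.51 and 3.05, and Kif9, a motor of macrophage podosomes, fell by 2.46 and 2.26. Between the labels 0 of the 86 genes and 0 of the 20 relatives were called on any day (edgeR). Of all genes 0.119%, 0.112% and 0.14% were called on days 0, 1 and 3. An unadjusted p under 0.05 was found for 5, 10 and 15 of the 86 and 1, 2 and 3 of the 20 on these days. Of all genes 10.7% had one on day 3, and the share for days 0 and 1 was not computed.

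The genes most like each member were those with the smallest root mean square (RMS) difference of centred log2 CPM over the 18 libraries. For Src they were Uchl1 (0.417), Pdgfb (0.422) and Lims2 (0.426), against an SD of 1.63 for Src itself, and the same 3 in another order in FPKM. For Cttn they were Ccnd2 (0.207), Tshz3 (0.226) and Fgfr1 (0.238), with an SD of 1.41 for Cttn, and for Vcl they were Zfp507 (0.242), Palld (0.258) and Nxn (0.258), with an SD of 1.26. For Myo10 they were Gm10053 (0.241), Idh3a (0.242) and Mthfd2 (0.275), and for Sh3pxd2a no gene came closer than Firre at 0.503, beside an SD of 0.959. For Gsn the nearest was Pgp (0.141), ahead of Oat and Tbl2, and for Pxn it was Tbc1d2b (0.193), ahead of Lrch1 and Traf6. Ptk2b was nearest to Rab8a (0.125), then Cnot4 and D17Wsu92e, Fermt3 to Ints9 (0.0958), then Dhx34 and Stxbp2, and Tln1 to Eif3d (0.098), then Rpl6 and Hira. The 18 libraries share days and cell mixtures, so these are descriptions of shared levels only.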

How the data were processed

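Total RNA was made into messenger RNA libraries with a SMARTer kit. The authors deposited 1 table with a whole-number count per gene and library and an FPKM value, estimated with StringTie and Ballgown, for 34745 genes. Processing notes name GRCm38.p4 and mm10, and the aligner, counting program and use of strand are not given in the sources used here. Deposited FPKM equalled count divided by total count and 1 length per gene (within 0.001 in 19733 of 19733 genes with counts in at least 2 libraries), so it adds no independent measurement.

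Counts were fitted in R 4.3.3 with edgeR 4.0.16 (filterByExpr, TMM, glmQLFit, all 18 libraries as 6 groups, 14241 genes kept), 2-sided, with Benjamini-Hochberg adjustment over all genes tested, and called at an adjusted p under 0.05. CPM are TMM-scaled. SE come from the quasi-likelihood F statistic. Alternatives used DESeq2 1.42.0 and limma 3.58.1 (log2 of FPKM plus 0.1), other scalings and filters, title style, the replicate number as a block, and libraries left out. The fit was tested on simulated data. Deviations from the group means were correlated between libraries with the same number. For the KO label the correlations were 0.13, 0.135 and 0.398 (days 0 and 3) and 0.156 to 0.34 (days 1 and 3). For the WT label they were -0.023 to 0.111 (days 0 and 3). For days 0 and 1 they were 0.054, 0.501 and 0.598 (KO) and -0.464, 0.604 and 0.138 (WT). Libraries with different numbers were not compared, so these values cannot show whether the numbers pair libraries. What a shared number stands for is not stated.

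The members, gene lists, motifs and rules were chosen with earlier results of these data known. Named from the lists were the tested relatives, up to 3 genes a pathway list with the largest WT fold change among those called alike under both labels, and the 3 nearest genes of each member. Itgam and Tgfb1i1 stand on 2 lines of the table, and the line with more counts was taken. Precision is set by read number and by how far libraries of a group differ, and copies made by amplification were not told apart. A gene and a list among those tested are not reported here.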

Additional observations from a re-analysis of the deposited data

How the results depend on the processing

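The results of the 10 members were recomputed with other filters and scalings, DESeq2, limma on FPKM, only the groups compared, title style, a replicate block and libraries left out. Relatives and pathway genes were recomputed with other scalings only. Leaving out the 5 double-hyphen libraries was chosen after seeing the data. The counts given next cover only a chosen part of the members' comparisons. Of those recomputed fold changes, 967 kept their side of the threshold, 56 lost a call, 23 gained one, and 0 changed sign. Several changes close to 0 were left out of these counts, so the last count does not show that no member's change reversed.

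From day 0 to day 3 under the WT label, members lower numbered 0 with total counts and with limma. Under the KO label they numbered 2 with only the groups compared, with the replicate block, with title style and without the double-hyphen libraries, the addition being Ptk2b. Members higher from WT day 0 to day 1 numbered 0 with only the groups compared, the block and limma, and 0 to 3 with 1 library left out. From WT day 1 to day 3, members lower numbered 0 with total counts, only the groups compared, the block, limma and without the double-hyphen libraries, and 1 to 2 with 1 library left out, 2 being the value without WT day 1 library 1. From KO day 1 to day 3, title style gave 3 higher and 1 lower, and leaving out the double-hyphen libraries gave 1 higher and 0 lower. With 1 library left out there were 2 to 6 higher and 1 to 2 lower. Between labels on day 3, DESeq2 called 1 member lower, Fermt3. The causes were not tested beyond the smaller number of samples where libraries were left out.

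The replicate block called 6 members higher and 1 lower (WT) and 6 and 2 (KO) from day 0 to day 3, with Pxn lost under the WT label (0.62, adjusted p = 0.0619). Between labels it called 0.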
